A study of Mus musculus with 4 samples.

Results

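The 34 genes described here are the p53 gene Trp53, its regulators and a set of genes that p53 is known to switch on. They were taken by gene name from 4 tables of mouse liver RNA sequencing that list 35522 genes each, and all 34 were found. The liver tissue came from strain C57BL/6, 24 h (1 day) after treatment with diethylnitrosamine (DEN), which liver enzymes turn into a DNA-alkylating agent. Of the libraries, 2 were labelled Control and 2 Dph1 KO, and all 4 are labelled as DEN-treated. Dph1 encodes a subunit of the enzyme that begins the synthesis of diphthamide, a modified amino acid of the translation elongation factor eEF2. The labels do not give the allele, the cells in which Dph1 was deleted, or the age and sex of the mice. No liver without DEN is analysed here, and the values compare the genotypes after DEN rather than measure the response to it.

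p53 is a transcription factor that cells keep scarce through the ubiquitin ligase Mdm2 and its relative Mdm4. After DNA damage the p53 protein is stabilised, mostly without a change in its own mRNA, and it switches on genes that stop the cell cycle, repair DNA, limit growth or trigger cell death. Mdm2, Ppm1d and Ccng1 are themselves targets and feed back on p53, so the mRNA levels of the targets are a common readout of p53 activity in liver.

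The libraries held 19474596 to 21137358 gene reads, and values are CPM (reads scaled to library size with TMM factors) unless stated otherwise. Dph1 RNA was at 70.3 and 68.3 CPM in Control against 17.8 and 31.5 CPM in Dph1 KO, so the labels match its level. Over the 4 libraries only 54.2% of Dph1 reads were uniquely matched, and the origin of the others was not tested. Uniquely matched Dph1 reads numbered 194 and 291 for the Dph1 KO libraries, against 762 and 722 for Control, so some Dph1 RNA was still present. On such reads its log2 fold change was -1.93 (edgeR adjusted p = 0.00215). Hepatocyte markers dominated every library, with 67272 and 78883 CPM over 10 genes in Control and 65166 and 71378 CPM in Dph1 KO. Summed Kupffer cell and macrophage markers (9 genes) gave 303 and 318 CPM in Control against 193 and 317 CPM in Dph1 KO. Of these 9 genes 1 fell (Cd68, the most abundant of them) and 8 were not called, 5 had a positive log2 fold change, and the median was 0.08. Lymphocyte markers (9 genes, 6 of them under 1 CPM) summed to 8.21 to 9.62 CPM and neutrophil markers (7 genes) to 1.14 to 2.56 CPM over the 4 libraries. The part of these cell markers in the results was not tested. In whole liver, fewer cells of a type and less RNA per cell cannot be told apart.

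Few of the p53 pathway genes were called between the genotypes, and a gene not called may still differ. Of the 33 members with enough reads for the test, 3 rose in Dph1 KO (Sesn3, Trp53inp1 and Pmaip1), 1 fell (Trp53) and 29 were not called (edgeR, Benjamini-Hochberg adjusted p under 0.05). Over all 13303 genes tested, 4.86% rose and 7.47% fell, so 3 of 33 and 1 of 33 lie near the share of genes called in general. At an unadjusted p under 0.05 in edgeR, 10 members were higher and 3 lower (16.3% and 17.9% of all genes). With correction for GC content and transcript length these were 8 and 2 (12.8% and 14.5% of all genes). The count depended on the scaling: 12 members rose and 1 fell with scaling by library total only (19.8% and 5.93% of all genes). That fall was not Trp53 but 1 of the 4 genes for metabolism and RNA control. With upper quartile scaling 8 members rose and 1 fell (8.06% and 7.28% of all genes). With limma on log2(TPM + 1), 0 members were called (0.015% and 0.00752% of all genes rose and fell), with 13 higher and 1 lower before adjustment of the p-values (18.7% and 6.65% of all genes). The median member log2 fold change (Dph1 KO over Control) was 0.18, against 0.04 over all genes tested, and 24 of 33 were positive. Both Dph1 KO libraries lay above both Control libraries for 16 members (34.9% of all genes) and below them for 4 (32.5% of all genes). The p-values measure the spread between these libraries, which may be technical, since the labels do not say that they came from separate animals. With 2 libraries against 2, an exact permutation test cannot give a two-sided p under 0.333, so each call rests on the spread estimated across genes.

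**Figure D1:**
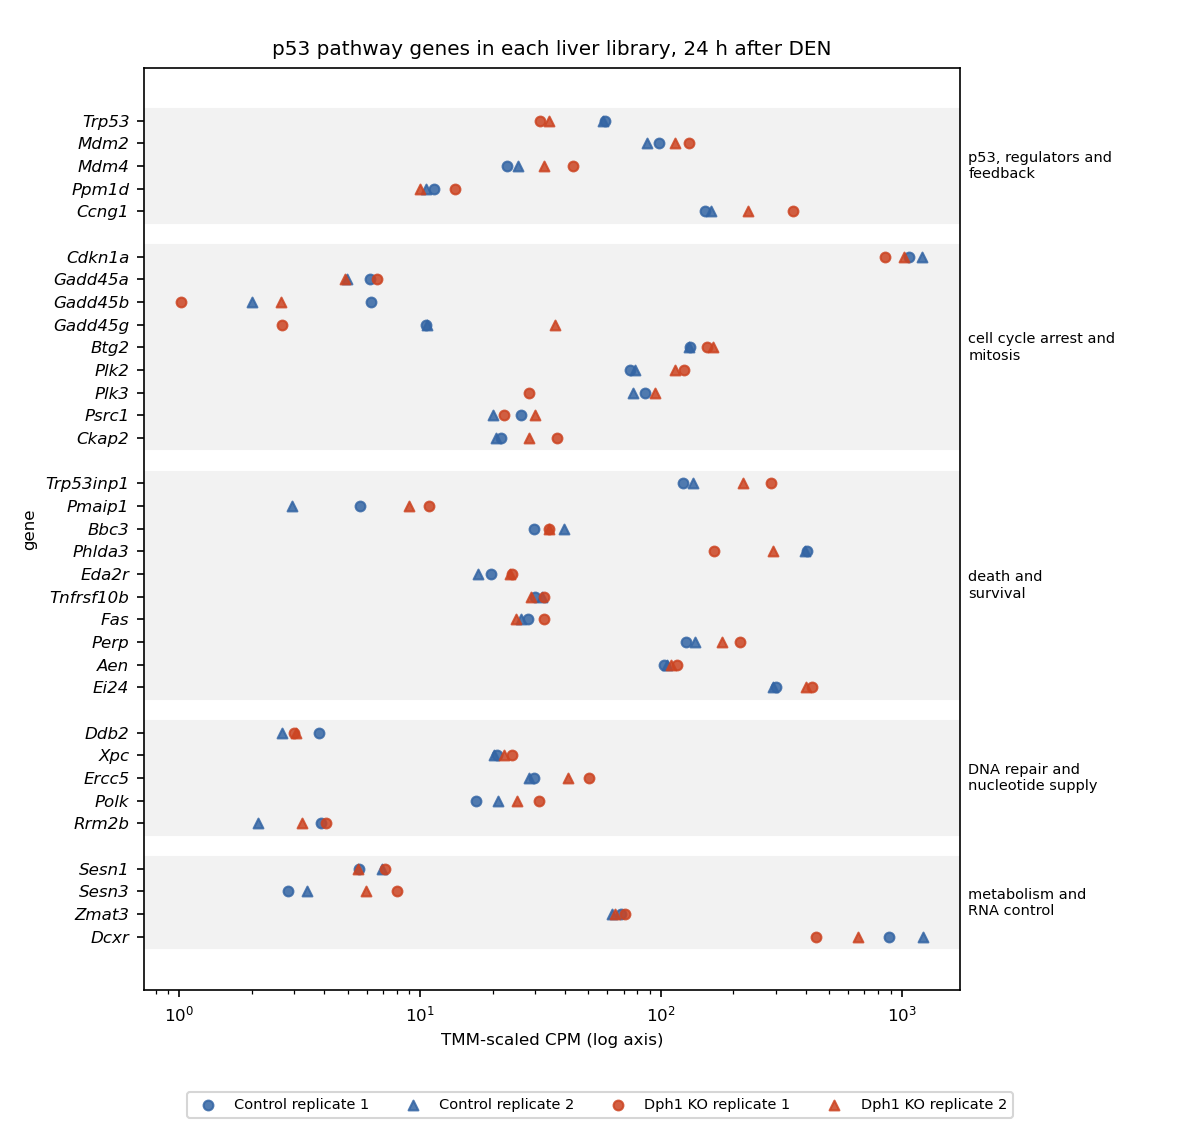
TMM-scaled CPM (log axis) of the 33 tested p53 pathway genes in each of the 4 liver libraries, grouped by role, with Control in blue and Dph1 KO in red, and replicate 1 as circles and replicate 2 as triangles. Trp53 lies to the left in both Dph1 KO libraries (31.4 and 34.4 CPM against 58.4 and 57.4), and the red points of Gadd45g and Plk3 lie far apart from each other.

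Trp53, which encodes p53, was lower in both Dph1 KO libraries. Trp53 (gene ID 22059; GRCm38 chromosome 11, 69580359 to 69591873, plus strand, 12 exons) had 58.4 and 57.4 CPM in Control and 31.4 and 34.4 CPM in Dph1 KO, from 1074, 1032, 742 and 752 reads. The groups did not overlap, and the pair within each genotype lay close together. The log2 fold change of Trp53 was -0.81 (SE 0.19) with a Benjamini-Hochberg adjusted p of 0.0280 in edgeR. After correction for GC content and transcript length it was -0.54 (edgeR adjusted p = 0.0432). The call was lost without Control replicate 1 (edgeR adjusted p = 0.159), without Control replicate 2 (0.169) and with scaling by library total only (log2 fold change -0.56, adjusted p = 0.0564). Intron reads made up 6.80% and 3.78% of Trp53 reads in the Control libraries, against 12.7% and 9.84% in the Dph1 KO libraries, and on exon reads alone the log2 fold change was -0.87 (edgeR adjusted p = 0.0194). The gene lies 5.59 Mb from Dph1 on the same chromosome. Its neighbour Wrap53, which lies on the opposite strand 1034 bases away and encodes a protein of telomerase assembly, also fell, with a log2 fold change of -0.73 (edgeR adjusted p = 0.0425). After GC correction Wrap53 had -0.26 and was not called (edgeR adjusted p = 0.264).

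The genes that restrain p53 were not called. Mdm2, the ubiquitin ligase that sends p53 to the proteasome (chromosome 10, 117688905 to 117710716), had 98.0 and 87.9 CPM in Control and 131 and 115 CPM in Dph1 KO. Both Dph1 KO values lay above Control, with a log2 fold change of 0.40 (SE 0.21; edgeR adjusted p = 0.197). Mdm4, which binds p53 and blocks its activation domain, had 23.0 and 25.6 CPM in Control and 43.3 and 32.6 CPM in Dph1 KO. These groups did not overlap either, and the log2 fold change of 0.64 (SE 0.21) missed the threshold (edgeR adjusted p = 0.0645). Ppm1d, the phosphatase that switches off damage signalling, overlapped between genotypes, with 11.5 and 10.6 CPM in Control and 13.9 and 9.97 CPM in Dph1 KO.

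Ccng1, a cyclin that recruits a phosphatase to Mdm2, was the member nearest to the threshold without passing it. It had 152 and 162 CPM in Control and 356 and 231 CPM in Dph1 KO. Both Dph1 KO libraries stood above both Control libraries but lay far apart from each other, which gave a log2 fold change of 0.90 (SE 0.27; edgeR adjusted p = 0.0508). With GC correction the log2 fold change was 0.38 (edgeR adjusted p = 0.167). The tumour suppressor locus Cdkn2a, one of whose products restrains Mdm2, had 5 and 2 reads in the Control libraries, against 0 and 3 in Dph1 KO, and was below the filter on low reads. In this group of 6 genes, 5 were tested, 0 rose and 1 fell (4.86% and 7.47% of all genes). The median log2 fold change was 0.40, and 0.15 after GC correction.

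Sequences just before the starts of 5 of these genes show where letters matching the p53 half-site lie. A p53 response element is built from such decamer half-sites, usually a pair close together. The sequences are from RefSeq (GRCm38.p6), 250 bases up to the base before the start, written 5′ to 3′ on the strand of the gene, with each match to the p53 half-site decamer in capitals. Cdkn1a, at the upstream of its 2 listed starts, is shown as the member with a pair, Mdm2, Ccng1 and Trp53 as the feedback loop, and Sesn3 as a member that rose and has no match in these 250 bases.
Cdkn1a, chr17:29090729-29090978, plus strand: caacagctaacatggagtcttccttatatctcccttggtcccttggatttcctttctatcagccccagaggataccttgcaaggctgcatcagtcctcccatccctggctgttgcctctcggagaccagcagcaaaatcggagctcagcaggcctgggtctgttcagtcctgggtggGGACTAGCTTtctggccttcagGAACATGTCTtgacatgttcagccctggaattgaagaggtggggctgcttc
Mdm2, chr10:117710759-117711008, minus strand: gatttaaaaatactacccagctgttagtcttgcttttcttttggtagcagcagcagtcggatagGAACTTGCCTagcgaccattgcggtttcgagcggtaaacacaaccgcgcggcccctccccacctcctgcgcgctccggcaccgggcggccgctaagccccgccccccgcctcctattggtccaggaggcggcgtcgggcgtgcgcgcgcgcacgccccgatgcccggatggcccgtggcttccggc
Ccng1, chr11:40755287-40755536, minus strand: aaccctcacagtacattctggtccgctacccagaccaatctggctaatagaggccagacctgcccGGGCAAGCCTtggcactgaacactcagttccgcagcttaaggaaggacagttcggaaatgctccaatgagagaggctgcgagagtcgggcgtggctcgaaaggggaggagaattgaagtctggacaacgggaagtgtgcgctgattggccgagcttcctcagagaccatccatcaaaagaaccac
Trp53, chr11:69580109-69580358, plus strand: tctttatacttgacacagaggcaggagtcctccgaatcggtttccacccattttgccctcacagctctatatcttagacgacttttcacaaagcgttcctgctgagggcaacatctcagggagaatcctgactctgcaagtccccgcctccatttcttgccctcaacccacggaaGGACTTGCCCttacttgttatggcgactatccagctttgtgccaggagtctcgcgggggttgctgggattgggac
Sesn3, chr9:14276051-14276300, plus strand: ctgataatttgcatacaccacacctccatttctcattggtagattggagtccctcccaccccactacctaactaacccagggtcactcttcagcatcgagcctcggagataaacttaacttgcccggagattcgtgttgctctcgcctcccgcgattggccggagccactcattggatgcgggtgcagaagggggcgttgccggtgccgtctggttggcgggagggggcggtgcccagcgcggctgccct
In Cdkn1a the matches begin 73 and 51 bases before the start and form a pair. In Mdm2, Ccng1 and Trp53 there is 1 match each, beginning 186, 185 and 75 bases before the start. RefSeq windows of 300 bases (250 before and 50 after the start) were found for 26 of the 34 members. Of these 26 genes, 11 (42.3%) had at least 1 half-site on either strand: Gadd45a, Aen, Ckap2, Ei24, Sesn1, Mdm2, Ccng1, Trp53, Ppm1d, Polk and Cdkn1a. Over all 27025 genes with windows the share was 9.55%. A pair with a spacer of 0 to 13 bases was found in 1 of 35 member windows, against 0.0731% of all 32851 windows. The plain core CATG, which some half-sites contain, was in 28.6% of member windows and 61.1% of all windows, and the member windows had a median GC content of 62.3% against 52.7%. Of the 11 genes with a half-site, 1 was called in the genotype comparison (Trp53, which fell), and 12.3% of all genes tested were called in either direction. The 8 members without a window include Trp53inp1 and Pmaip1, which rose and could not be searched. A match describes these letters and does not show binding.

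Of the 9 arrest and mitosis genes none was called, with 2 of them higher and 0 lower at an unadjusted p under 0.05 (16.3% and 17.9% of all genes). The median log2 fold change was 0.18, and 0.23 after GC correction. Cdkn1a, the cyclin-dependent kinase inhibitor that carries out the p53 arrest (chromosome 17, 29090986 to 29100722, 4 exons), was among the most abundant members. Its levels were 1078 and 1221 CPM in Control and 850 and 1025 CPM in Dph1 KO. Both Dph1 KO values lay below both Control values, and Cdkn1a was not called (edgeR adjusted p = 0.460), with a log2 fold change of -0.29 (SE 0.27). Its sign depended on the processing: the log2 difference was 0.03 after GC correction and 0.09 on log2(TPM + 1). The median of all genes was -0.006 in the former fit and 0.23 in the latter. On log2(TPM + 1) Cdkn1a thus still lay below the median of all genes. Btg2, an antiproliferative partner of the mRNA deadenylase complex, had 132 and 131 CPM in Control and 156 and 165 CPM in Dph1 KO, not called (log2 fold change 0.28).

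The Gadd45 genes, which encode small stress proteins of the p38 and JNK kinase pathways, did not move together. Gadd45a was level, at 6.20 and 4.95 CPM in Control and 6.65 and 4.89 CPM in Dph1 KO. Gadd45b was low throughout, at 6.25 and 2.00 CPM in Control and 1.02 and 2.65 CPM in Dph1 KO. Gadd45g had 10.6 and 10.7 CPM in Control but 2.67 and 36.5 CPM in Dph1 KO, so its Dph1 KO libraries lay on opposite sides of Control. Without Dph1 KO replicate 1 the log2 fold change of Gadd45g was 1.80, and without Dph1 KO replicate 2 it was -1.97.

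The polo-like kinase genes Plk2 and Plk3 also differed in pattern. Plk2 had 74.6 and 78.2 CPM in Control and 125 and 115 CPM in Dph1 KO, with no overlap. It missed the threshold with a log2 fold change of 0.65 (SE 0.21; edgeR adjusted p = 0.0607) and kept a log2 fold change of 0.51 after GC correction (edgeR adjusted p = 0.0536). Plk3, by contrast, had 85.8 and 76.3 CPM in Control and 28.3 and 94.4 CPM in Dph1 KO. As with Gadd45g, the low value was Dph1 KO replicate 1 and the high one replicate 2. The microtubule-binding gene Ckap2 (21.6 and 20.6 against 37.0 and 28.4 CPM) missed the threshold with a log2 fold change of 0.64 (edgeR adjusted p = 0.0634), and Psrc1, another microtubule regulator, overlapped between genotypes (26.2 and 20.1 against 22.4 and 30.1 CPM).

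Among the 10 death and survival genes, 2 rose (4.86% of all genes did) and 8 were not called. The median log2 fold change was 0.24, and 0.28 after GC correction. Trp53inp1, whose product promotes p53-driven death and autophagy (chromosome 4, 11156441 to 11174377), had 123 and 136 CPM in Control and 287 and 219 CPM in Dph1 KO. Every Dph1 KO value lay above every Control value, and the log2 fold change was 0.96 (SE 0.24; edgeR adjusted p = 0.0327). After GC correction it was 0.33 and not called (edgeR adjusted p = 0.221), and the call was also lost without Control replicate 1 (0.260) and Control replicate 2 (0.200). Pmaip1, which encodes the pro-apoptotic protein Noxa (chromosome 18, 66458604 to 66465558), was much less abundant, at 5.66 and 2.95 CPM in Control and 10.9 and 9.01 CPM in Dph1 KO. The groups did not overlap, and the log2 fold change was 1.21 (SE 0.30; edgeR adjusted p = 0.0338). After GC correction it was 0.81 and not called (edgeR adjusted p = 0.0917), and without Control replicate 2 the call was lost (edgeR adjusted p = 0.245).

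Bbc3, which encodes the related pro-apoptotic protein Puma, had 29.7 and 39.5 CPM in Control and 34.5 and 34.4 CPM in Dph1 KO. The Dph1 KO values lay between the Control values (log2 fold change -0.01; edgeR adjusted p = 0.985). Bbc3 has the highest GC content of the members, 65.2%, and after GC correction it had a log2 fold change of 0.86 (SE 0.22; edgeR adjusted p = 0.0442), which would count as a rise. Phlda3, which keeps the survival kinase Akt off the membrane, was lower in both Dph1 KO libraries, at 406 and 396 CPM in Control against 166 and 291 CPM. It was not called (log2 fold change -0.81, SE 0.29; edgeR adjusted p = 0.0857), and its log2 fold change was -0.05 after GC correction.

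The death receptors differed little. Fas had 28.0 and 26.3 CPM in Control and 32.7 and 25.1 CPM in Dph1 KO, and the TRAIL receptor Tnfrsf10b 30.1 and 32.0 CPM in Control and 32.6 and 28.8 CPM in Dph1 KO. Both overlapped between genotypes. Eda2r, the receptor for ectodysplasin A2, was slightly higher in both Dph1 KO libraries (19.7 and 17.5 against 24.1 and 23.7 CPM; log2 fold change 0.37, not called). Ei24, an endoplasmic reticulum protein linked to autophagy, was at 297 ± 4.69 CPM (SD, n = 2) in the Control libraries, and the Dph1 KO libraries gave 426 and 401 CPM. Perp, a membrane protein of cell junctions with a part in apoptosis, had 127 and 139 CPM against 212 and 180 CPM. Neither group overlapped, and neither gene was called (log2 fold changes 0.48 and 0.56; edgeR adjusted p = 0.182 and 0.110). The nuclease gene Aen stayed within a narrow range, at 103 and 106 CPM in Control and 116 and 110 CPM in Dph1 KO.

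**Figure D2:**
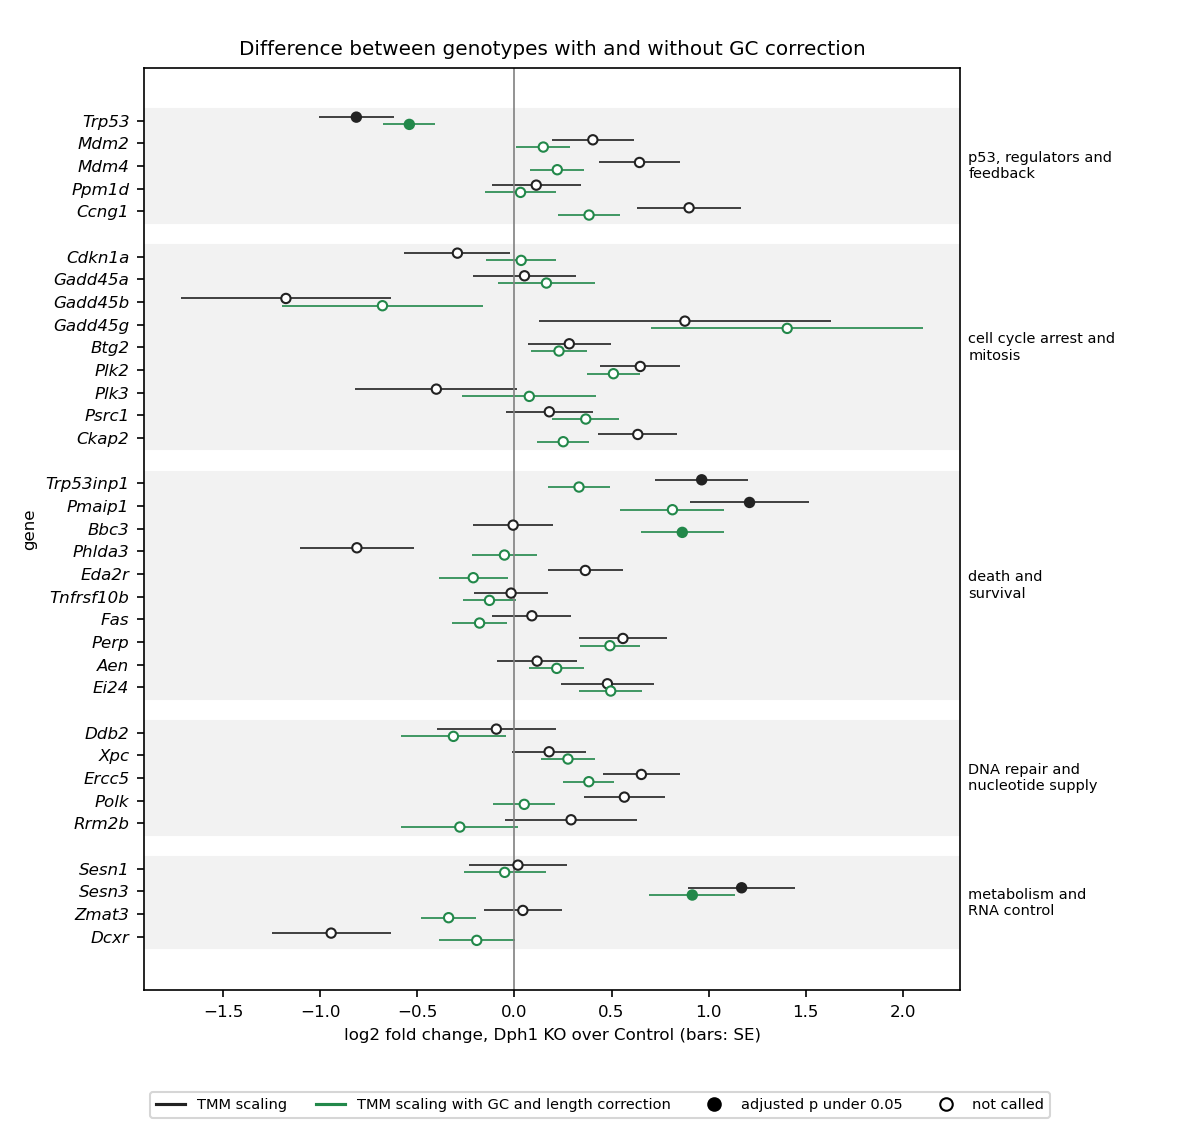
Log2 fold change (Dph1 KO over Control, bars show the SE) of the 33 tested p53 pathway genes, with TMM scaling (dark) and with added GC and length correction (green); filled points have an edgeR adjusted p under 0.05 and open points do not. Trp53 and Sesn3 are filled in both, Trp53inp1 and Pmaip1 only before and Bbc3 only after the correction.

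None of the 5 genes for DNA repair and nucleotide supply was called. At an unadjusted p under 0.05 in edgeR, 2 were higher and 0 lower (16.3% and 17.9% of all genes). After GC correction 1 was higher and 0 lower (12.8% and 14.5% of all genes). The median log2 fold change was 0.29, and 0.05 after the correction. Ercc5, the nuclease that cuts beside damage in nucleotide excision repair, came closest. It had 29.8 and 28.4 CPM in Control and 50.3 and 41.2 CPM in Dph1 KO, without overlap (log2 fold change 0.65, SE 0.20; edgeR adjusted p = 0.0541). Polk, a polymerase that copies past damaged bases, had 17.1 and 21.1 CPM in Control and 31.3 and 25.2 CPM in Dph1 KO (log2 fold change 0.57; edgeR adjusted p = 0.0899). The damage sensors of the same repair pathway were close to level. Xpc had 20.9 and 20.2 CPM in Control and 24.1 and 22.4 CPM in Dph1 KO, and Ddb2 had 3.81 and 2.67 CPM against 3.01 and 3.06 CPM. Rrm2b, a ribonucleotide reductase subunit that supplies DNA building blocks, was also low (3.86 and 2.11 against 4.07 and 3.25 CPM) and overlapped between genotypes. Ddb2 shares 2520 bases with the more abundant gene Acp2 on the opposite strand. The labels do not say whether counting used strand, and reads of the pair cannot be assigned for certain.

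Of the 4 genes for metabolism and RNA control, 1 rose (Sesn3) and 0 fell (4.86% and 7.47% of all genes). The median log2 fold change of the 4 was 0.03, and -0.12 after GC correction. Sesn3 encodes a sestrin, which restrains the growth kinase complex mTORC1 (chromosome 9, 14276301 to 14326134). It had 2.83 and 3.39 CPM in Control and 8.05 and 5.95 CPM in Dph1 KO, from 52, 61, 190 and 130 reads. The groups did not overlap, and the log2 fold change was 1.17 (SE 0.28; edgeR adjusted p = 0.0280). It was 0.92 after GC correction (edgeR adjusted p = 0.0404). The call was lost when Control replicate 1 (edgeR adjusted p = 0.134), Control replicate 2 (0.0647) or Dph1 KO replicate 1 (0.0574) was left out. Its relative Sesn1 was level, at 5.60 and 6.95 CPM in Control and 7.16 and 5.53 CPM in Dph1 KO, and so was the RNA-binding protein gene Zmat3 (68.2 and 62.9 against 70.8 and 64.3 CPM). Dcxr, a reductase of dicarbonyls and xylulose that is abundant in liver, had 889 and 1226 CPM in Control and 440 and 659 CPM in Dph1 KO. It was lower in both Dph1 KO libraries without passing the test (log2 fold change -0.94, SE 0.31; edgeR adjusted p = 0.0642), and its log2 fold change was -0.19 after GC correction.

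Per transcript length, the members spanned a wide range of levels. In the deposited RPKM, Dcxr was highest in Control (964 ± 179, SD, n = 2), followed by Cdkn1a (495 ± 22.6), Phlda3 (243 ± 15.0), Ei24 (114 ± 6.51) and Perp (61.6 ± 1.61). The lowest were Sesn3 (1.20 ± 0.126), Ddb2 (1.07 ± 0.230), Rrm2b (0.498 ± 0.207) and Cdkn2a (0.0865 ± 0.00248). Among the 34 members Trp53 ranked 10 in Control, at 26.2 ± 0.902 RPKM, and 14 in Dph1 KO, at 16.6 ± 0.160. Of the 33 neighbouring pairs in the Control order, 14 overlapped between libraries and 19 did not. In Dph1 KO the order was much the same: Dcxr (592 ± 124) and Cdkn1a (479 ± 29.8) led again, and Ei24 (189 ± 22.6) stood above Phlda3 (162 ± 52.0). Across the 33 members listed above 0 in every library, the log2 RPKM means of the genotypes had a Pearson r of 0.971, a description over genes of the same libraries.

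Member differences followed the GC content of their transcripts, as those of other genes did. The Spearman rho between log2 fold change and GC content was -0.65 over the 33 members and -0.62 over 12408 protein-coding genes. In the lowest of 5 GC classes (32.6% to 44.0% GC), 9 of 9 members had a positive log2 fold change. Their median was 0.64, against 0.48 for all genes of the class. Mdm4, Ckap2 and Polk, which missed the threshold, are among these 9. In the highest class (55.6% to 72.8% GC), 1 of 6 was positive (Gadd45g), with a median of -0.61 against -0.56. Of the called genes, Trp53inp1 (38.8% GC), Pmaip1 (42.1%) and Sesn3 (45.0%) lie on the low side and Trp53 (53.3%) on the high side. With the correction, 2 members rose (Sesn3 and Bbc3) and 1 fell (Trp53), where 3.83% and 4.59% of all genes did.

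**Figure D3:**
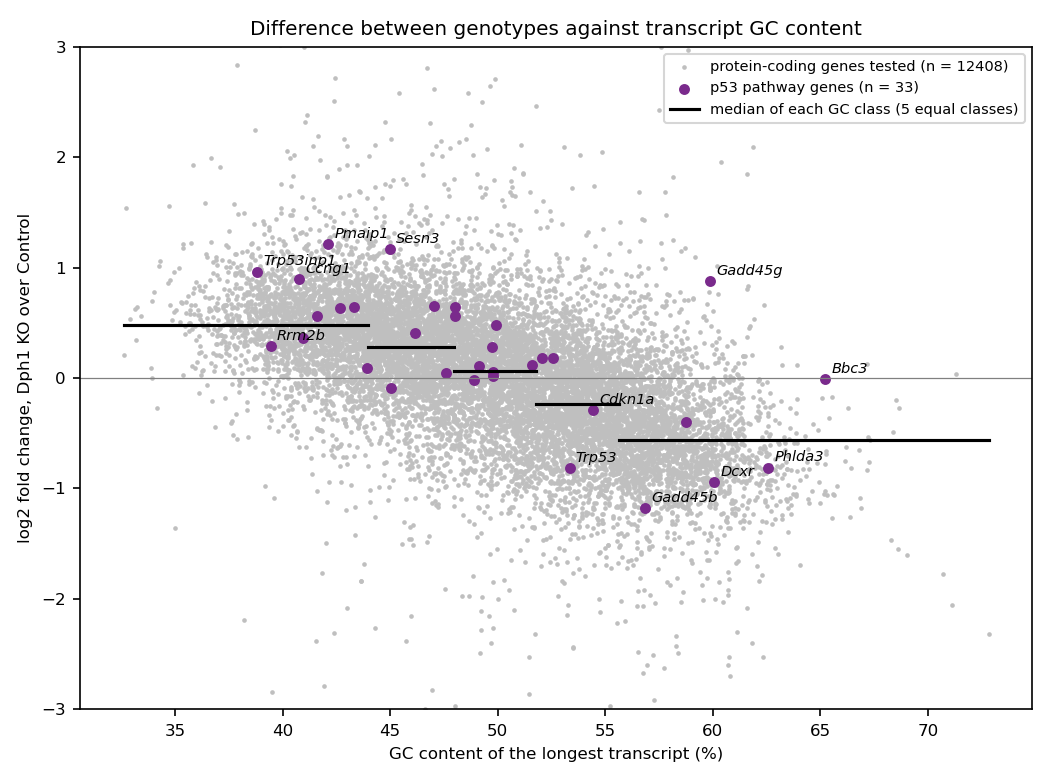
Log2 fold change (Dph1 KO over Control) against the GC content of the longest transcript for protein-coding genes (grey) and the 33 tested p53 pathway genes (purple), with black lines at the median of 5 GC classes of equal gene number; the vertical axis is limited, and grey genes beyond it are not drawn. The class medians go from 0.48 at the lowest to -0.56 at the highest GC content, and most purple points lie near these lines.

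Replicates of one genotype were less alike in Dph1 KO than in Control. The larger CPM of a pair divided by the smaller had a median of 1.10 in Control and 1.25 in Dph1 KO over the 33 members. It was 1.15 and 1.25 over all genes. The Dph1 KO pair was wider than the Control pair for 27 of 33 members (81.8%), against 62.9% of all genes. Of the members 3 (9.09%) had a Dph1 KO ratio above 2, against 5.04% of all genes: Gadd45g (ratio 13.7), Plk3 (3.34) and Gadd45b (2.61). For Gadd45b the Control ratio was larger still (3.12). The number of called members also moved with the library left out. In edgeR, 1 member rose and 0 fell without Control replicate 1, where 1.31% and 4.13% of all genes did, and 3 members were higher and 2 lower at an unadjusted p under 0.05 (7.45% and 12.3% of all genes). Without Control replicate 2, 0 rose and 1 fell (1.32% and 2.50% of all genes), and 7 were higher and 2 lower at an unadjusted p under 0.05 (8.07% and 9.57%). When a Dph1 KO library was dropped, 4 rose and 1 fell for replicate 1 (4.15% and 5.59%), and 11 rose and 6 fell for replicate 2 (18.9% and 20.4%).

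**Figure D4:**
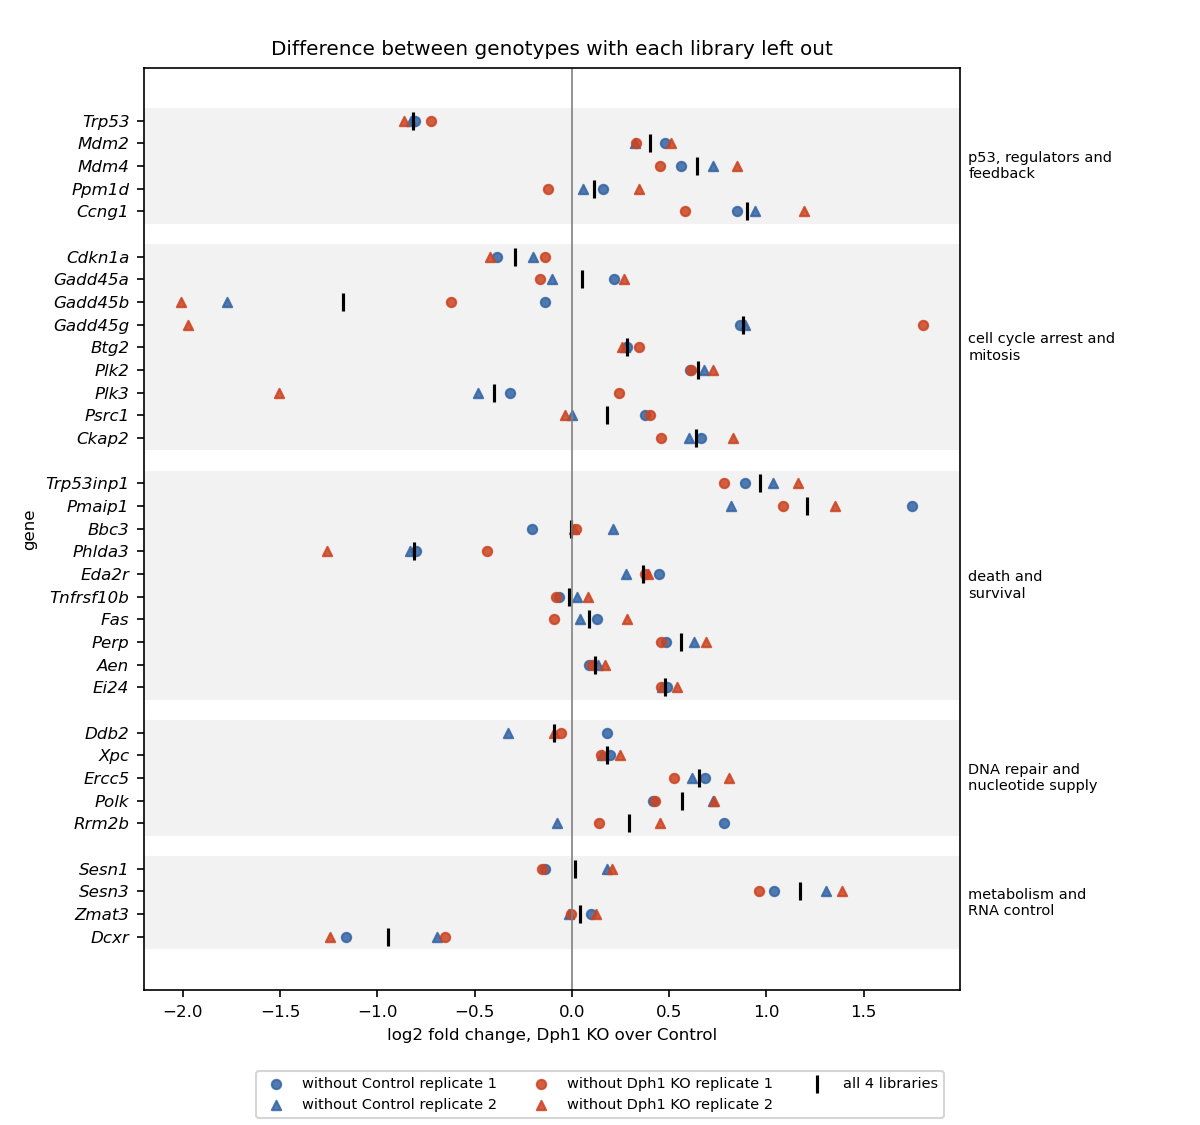
Log2 fold change (Dph1 KO over Control) of the 33 tested p53 pathway genes with all 4 libraries (black bars) and with each library left out (blue for a Control library and red for a Dph1 KO library left out, circles for replicate 1 and triangles for replicate 2). Trp53 stays between -0.87 and -0.73 and Sesn3 between 0.96 and 1.39, while Gadd45g runs from -1.97 to 1.80.

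Intron reads give a rough view of unspliced RNA. Among the 30 members with at least 50 reads in each library, the intron share was higher in both Dph1 KO libraries than in both Control libraries for 13 (43.3%). Over 9950 genes it was 45.0%. Trp53 was one of the 13, and so was Trp53inp1, at 7.76% and 7.89% in Control libraries against 9.93% and 10.3%. Ckap2 alone among the members had a lower share in both (10.3% and 11.9% in Control, 7.67% and 6.75% in Dph1 KO), as 5.61% of all genes did.

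Other genes of the p53 pathway were counted in 3 lists apart from the members. Their counts stand beside 4.86% of all genes that rose and 7.47% that fell. Of 35 tested regulators of p53, 4 rose (11.4%) and 2 fell (5.71%), with a median log2 fold change of 0.22. The damage kinase Atr rose with 7.07 and 8.06 CPM in Control and 24.0 and 13.6 CPM in Dph1 KO (log2 fold change 1.31; edgeR adjusted p = 0.0200). The p53 ubiquitin ligase gene Trim24 (0.85) and the large ligase gene Herc2 (0.71) also rose, and Akt1, the kinase that activates Mdm2, fell (-0.89). After GC correction Trim24 alone among these stayed past the threshold (log2 fold change 0.69; edgeR adjusted p = 0.0336).

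Of 51 other p53 targets tested, 2 rose (3.92%) and 6 fell (11.8%), with a median of -0.08. The lipid kinase gene Dgka rose most firmly, from 8.38 and 9.29 CPM in Control to 28.9 and 27.9 CPM in Dph1 KO (log2 fold change 1.68; edgeR adjusted p = 0.00112). The growth factor carrier gene Igfbp3 rose from 11.7 and 7.40 CPM to 24.4 and 27.3 CPM (log2 fold change 1.44; edgeR adjusted p = 0.00869). The pro-apoptotic gene Bid fell from 30.0 and 21.4 CPM to 10.2 and 5.95 CPM (log2 fold change -1.67; edgeR adjusted p = 0.00843). Abhd4 (-1.11) and Trp53i13 (-1.28) fell as well. Dgka (1.76), Igfbp3 (1.60), Bid (-1.52) and Abhd4 (-0.89) remained past the threshold after GC correction, and Trp53i13 (-0.45) did not. The corrected counts over these 51 targets were 6 rises and 2 falls, and over the 35 regulators 1 rise and 0 falls, where 3.83% of all genes rose and 4.59% fell. At an unadjusted p under 0.05 the regulators then had 10 higher and 1 lower (12.8% and 14.5% of all genes). Among 16 tested cell cycle genes that p53 holds down through Cdkn1a, edgeR called 0. DESeq2 gave an adjusted p for 10 of them and called 0 of those. At an unadjusted p under 0.05 edgeR had 0 of them higher and 1 lower, and the median log2 fold change was 0.28.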

How the data were processed

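Per the labels' protocols, RNA from frozen livers was made into directional mRNA libraries. The submitters' processing notes name GRCm38 (mm10). No source used here gives the aligner, the counter or strand use. Per the file headers, the authors deposited whole-number read counts per gene (total, unique, exon, junction and intron reads), RPKM and TPM values, read ratios as a fraction of a gene's reads (not used; intron shares were computed from the counts) and annotation.

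Total gene reads were tested with R 4.3.3 and edgeR 4.0.16 (filterByExpr by genotype, TMM, glmQLFit and glmQLFTest, Benjamini-Hochberg over 13303 genes, threshold 0.05). The biological coefficient of variation was 18.5%, and TMM factors were 0.945 and 0.884 (Control) and 1.16 and 1.04 (Dph1 KO). To check that no library duplicated its pair, chi-square per degree of freedom was computed, at 29.7 between Control and 77.3 between Dph1 KO libraries. Neither pair was a duplicate by this check, and all 4 were kept. The value does not measure replicate quality. The SE is the size of the log2 fold change over the square root of F. Alternatives were other scalings, no filter, DESeq2 1.42.0, limma 3.58.1 on log2(TPM + 1), other read classes, a GC and length trend per library (mgcv 1.9.3, basis size 6, GENCODE M21 longest transcripts) and leaving out each library. A lone library is assumed to vary like the other genotype. The test was checked on simulated counts, with changes set in genes above a CPM floor. It called 6 of 77 genes changed 1.5-fold (7.79%), 31 of 56 changed 2-fold (55.4%) and 67 of 67 changed 4-fold. Far fewer genes were changed there than the 1640 called in the data. The adjusted threshold depends on that number, so recovery in the data may differ. Python 3.11.15 and pandas 2.3.3 made tables and motif searches.

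All members are named. Of the pathway lists, up to 3 called genes per direction were named by lowest p, and of the marker lists up to 2. Members and lists were chosen with earlier results of these data known. Kupffer cell, hepatocyte, lymphocyte, neutrophil, endothelial, stellate and bile duct cell markers were summed. The endothelial sum was 171 to 198 CPM, the stellate sum 121 to 148 CPM and the bile duct sum 18.9 to 34.6 CPM. F9 (hepatocyte) and Rgs5 (stellate) rose, and Cd68, Cd79a (lymphocyte) and Des (stellate) fell.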

Additional observations from a re-analysis of the deposited data

How the results depend on the processing

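Depth limits Cdkn2a, which had at most 5 reads in a library. It was tested only with no filter on low reads, where it was not called (edgeR adjusted p = 0.539). The counts of called members (3 rises and 1 fall) and of called genes among 102 others of the pathway (6 rises and 8 falls) moved with these settings. With scaling by library total only, 12 members and 22 other genes rose (19.8% of all genes), and the log2 fold changes of Bbc3 (0.26), Tnfrsf10b (0.25) and Ddb2 (0.16) changed sign. The median of all genes was then 0.30, so members are to be read relative to it. With upper quartile scaling 8 members rose (8.06% of all genes), and Bbc3 (0.075) and Tnfrsf10b (0.061) changed sign. Both lay below the median of all genes, which was then 0.12. With no filter 2 members fell (6.68% of all genes). DESeq2 gave 5 rises and 3 falls among members (4.86% and 10.8% of all genes) and 13 falls among the others. With limma-trend on log2(TPM + 1) the counts were 0, with 13 members higher and 1 lower at an unadjusted p under 0.05 (18.7% and 6.65% of all genes). In that fit Dph1 had -1.20 and was not called, and Cdkn1a (0.089), Bbc3 (0.34), Tnfrsf10b (0.30) and Ddb2 (0.048) changed sign. The median of all genes was then 0.23, and Cdkn1a and Ddb2 lay below it. With exon reads 6 members rose (6.45% of all genes), and Gadd45a (-0.016) and Fas (-0.015) changed sign. Sesn1 changed sign with RLE scaling (-0.014), DESeq2 (-0.014) and uniquely matched reads (-0.0028). After GC correction 2 of the other genes fell (4.59% of all genes), and Cdkn1a (0.034), Plk3 (0.076), Bbc3 (0.86), Eda2r (-0.21), Fas (-0.18), Rrm2b (-0.28), Sesn1 (-0.050) and Zmat3 (-0.34) changed sign. The cause of these changes was not tested.

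With 1 library left out in turn, called members ranged from 0 to 11 rises and 0 to 6 falls, and the other genes from 3 to 20 rises and 1 to 22 falls. Signs changed for Ddb2 (-0.33 to 0.18), Sesn1 (-0.15 to 0.21), Gadd45a (-0.17 to 0.27), Bbc3 (-0.21 to 0.21), Tnfrsf10b (-0.084 to 0.085), Rrm2b (-0.078 to 0.78), Zmat3 (-0.015 to 0.13), Ppm1d (-0.12 to 0.35), Plk3 (-1.50 to 0.24), Fas (-0.092 to 0.28), Gadd45g (-1.97 to 1.80) and Psrc1 (-0.035 to 0.40). No paired analysis was possible because the labels carry no replicate numbers, and the numbers used here only name the libraries and pair none of them.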

Other observations

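The genes around Trp53 were counted after its value was seen. Within 1 Mb on each side, 74 other genes were tested, of which 10 fell (13.5%) and 1 rose, with a median log2 fold change of -0.51. Over all genes tested 7.47% fell and 4.86% rose. Within 0.5 Mb 5 of 45 genes fell (11.1%), and within 2 Mb 10 of 96 (10.4%). After GC correction 3 of the 74 fell and 2 rose (4.59% and 3.83% of all genes), and the median was -0.11. The median GC content of these 74 genes was 54.6%. The macrophage gene Cd68, on chromosome 11 at 69664371 to 69666062, fell in both fits, with 114 and 106 CPM in Control and 40.0 and 57.0 CPM in Dph1 KO (log2 fold change -1.18, and -0.87 after correction; edgeR adjusted p = 0.0159 and 0.0127). The part of this neighbourhood in the Trp53 value was not tested.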
